A study of Mus musculus with 4 samples.

Results

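The genes described here are 7 major histocompatibility complex (MHC) genes of the mouse: the class II genes Cd74, H2-Aa, H2-Ab1 and H2-Eb1 and the class I genes B2m, H2-K1 and H2-D1. They were chosen by name from the 32285 genes counted in each library, and all 7 were found. The rule used no measured value, but earlier results of these data were known when it was set. Their transcripts were counted as unique molecular identifiers (UMIs, each standing for 1 captured RNA molecule) in single-nucleus RNA libraries of mouse brain. Together the 7 genes had 10501 UMIs in the nuclei kept.

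The study set harvest against nuclear fixation in brains of wild type C57BL/6 mice aged 10 weeks, with the cerebellum removed and the tissue frozen on dry ice for 10 min. There were 4 libraries, and each group was 1 library. Post-mortem brains were taken after cervical dislocation, and anaesthetised ("in vivo") brains by craniotomy under isoflurane. Nuclei from at most 50 mg of tissue were used unfixed or after 30 min in 80% methanol at -20 °C and a rehydration kit, and then entered the SeekOne DD 3' droplet kit. The 4 groups were post-mortem unfixed, post-mortem methanol, anaesthetised unfixed and anaesthetised methanol. The labels do not say whether a fixed and an unfixed library share a brain, so every difference below is between libraries and carries no p-value. Intervals are 95% intervals for counting error only.

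MHC class II molecules show peptides from engulfed protein to helper T cells. An alpha chain (H2-Aa) and a beta chain (H2-Ab1) pair in the endoplasmic reticulum with the invariant chain, the product of Cd74. It blocks the groove until cathepsins and H2-DM allow a peptide in. H2-Eb1 encodes a beta chain of another class II molecule. The alpha chain gene of that molecule is not among the members, so H2-Eb1 transcripts are not read here as that molecule. In healthy brain these genes are known from border-associated macrophages, dendritic cells and B cells, and are low in resting microglia. MHC class I molecules show peptides from the cytosol to CD8+ T cells. They are built from a heavy chain (H2-K1 or H2-D1) and beta-2 microglobulin (B2m), and are known from most nucleated cells, with vascular and immune cells high and neurons low.

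In the GENCODE vM21 annotation of mm10, 5 of the 7 genes lie in the H2 complex of chromosome 17. H2-K1 is at chr17:33996017-34000347 on the minus strand, H2-Ab1 at chr17:34257689-34269419 on the plus strand, H2-Aa at chr17:34282744-34287823 on the minus strand, H2-Eb1 at chr17:34305867-34316674 on the plus strand and H2-D1 at chr17:35262730-35267499 on the plus strand. B2m is at chr2:122147686-122153083 on the plus strand, and Cd74 also lies outside the complex. B2m overlaps Patl2, and H2-Eb1 overlaps Gm20513, each on the opposite strand, and the strand setting of the counting is not given in the sources used here. Over the 4 libraries Patl2 had between 25 and 65 UMIs and Gm20513 between 0 and 2. H2-K1 and H2-D1 are close copies of each other and of the H2-Q genes, so how reads were divided among them is uncertain.

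The class II genes and the class I genes are known to share a promoter module with an X box, part of which resembles a cAMP response element, and a Y box, a CCAAT element. The windows below are shown because the members of each class moved together across libraries. RefSeq windows on GRCm38.p6 were at hand for 5 of the 7 genes, and not for Cd74 and H2-Ab1. Each runs 5′ to 3′ on the gene's strand from 150 bases before the start to 50 bases after its first base, and H2-K1 is the first of its 2 windows. Capitals mark CTGATTGG or its reverse complement CCAATCAG (Y box) and TGACG or CGTCA (core of the cAMP response element).
H2-Aa, chr17:34287774-34287973, minus strand: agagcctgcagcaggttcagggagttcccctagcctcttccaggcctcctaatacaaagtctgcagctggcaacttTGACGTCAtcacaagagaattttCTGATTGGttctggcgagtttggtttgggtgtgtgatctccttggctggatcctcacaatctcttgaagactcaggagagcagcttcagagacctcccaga
H2-Eb1, chr17:34305717-34305916, plus strand: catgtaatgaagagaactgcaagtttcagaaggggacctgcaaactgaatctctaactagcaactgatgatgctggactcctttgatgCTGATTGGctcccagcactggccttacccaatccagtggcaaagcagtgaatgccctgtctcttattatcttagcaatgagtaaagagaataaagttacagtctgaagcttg
B2m, chr2:122147537-122147736, plus strand: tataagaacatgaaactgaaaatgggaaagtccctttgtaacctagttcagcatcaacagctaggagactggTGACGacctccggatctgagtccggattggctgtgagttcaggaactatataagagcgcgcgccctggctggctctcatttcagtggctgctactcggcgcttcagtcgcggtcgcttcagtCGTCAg
H2-K1, chr17:34000298-34000497, minus strand: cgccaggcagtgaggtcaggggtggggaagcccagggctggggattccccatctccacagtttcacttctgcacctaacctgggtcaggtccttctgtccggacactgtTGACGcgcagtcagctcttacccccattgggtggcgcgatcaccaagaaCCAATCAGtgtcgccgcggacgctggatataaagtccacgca
H2-D1, chr17:35262944-35263143, plus strand: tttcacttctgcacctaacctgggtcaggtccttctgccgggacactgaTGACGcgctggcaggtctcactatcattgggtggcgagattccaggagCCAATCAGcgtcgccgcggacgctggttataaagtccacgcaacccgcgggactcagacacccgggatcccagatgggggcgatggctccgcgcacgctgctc
Counted with the first transcribed base as 1, the Y box letters began at -51 in H2-Aa, -62 in H2-Eb1 and, reversed, at -53 in H2-D1 and at 9 in H2-K1. The core letters began at -74 in H2-Aa, where a reversed match overlaps the forward one, at -78 and 45 in B2m, at -41 in H2-K1 and at -101 in H2-D1. H2-Eb1 held no core letters and B2m no Y box letters in these windows. Of 32851 RefSeq windows of 300 bases, 4.10% held the Y box letters, 20.8% the core letters and 0.998% both. The letters were chosen after these sequences had been seen, and a match describes the sequence and shows no binding.

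After filtering, 12483 post-mortem unfixed, 9811 post-mortem methanol, 15134 anaesthetised unfixed and 6823 anaesthetised methanol nuclei remained. Their median depths were 3785, 6291, 3024 and 7822 UMIs and their totals between 51528633 and 63874279 UMIs, so depth moved with fixation. Pairs of libraries shared between 42 and 150 barcodes, at most 1.20% of the smaller library. Nuclei were put into classes by a gate: at least 3 of 10 marker genes of a class, and more than of any other of 15 lists. Each class with at least 5 nuclei in every library showed at least 7 of its 10 markers there. P2ry12 had a UMI in 70.5% to 91.7% of microglia-gated nuclei, and Mrc1 in 85.7% to 100% of macrophage-gated nuclei. These macrophage classes are small, with 15, 14, 14 and 8 nuclei in the library order given above, and this order holds for every list of 4 values below.

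Class II transcripts were rare, and they were fewer in the anaesthetised libraries. Cd74, the invariant chain, had 251, 618, 97 and 191 UMIs, or 4.87, 9.68, 1.86 and 3.22 counts per 1000000 UMIs of the same nuclei (CPM). The alpha chain H2-Aa had 1.01, 2.00, 0.307 and 0.472 CPM. The beta chain H2-Ab1 had 1.28, 2.54, 0.288 and 0.455 CPM, and the beta chain H2-Eb1 had 1.20, 2.82, 0.422 and 0.775 CPM. All 4 genes were highest in the post-mortem methanol library and lowest in the anaesthetised unfixed library. Summed, they had 8.36 (7.59 to 9.19), 17.0, 2.88 and 4.92 CPM.

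Between harvests, the class II sum in the anaesthetised library was lower than in the post-mortem library in both fixation states. The log2 ratio was -1.54 (-1.82 to -1.27) without fixation and -1.79 (-1.98 to -1.60) with methanol. Among genes with a mean of at least 1 CPM, 0.527% of 15950 were at least 2-fold lower after anaesthesia in both pairs. Cd74, at 1.86 and 3.22 CPM in the anaesthetised libraries, was among them, with ratios of -1.38 and -1.59. H2-Ab1 had ratios of -2.12 and -2.46 and H2-Eb1 of -1.49 and -1.85, but both reached the mean only through the post-mortem libraries, so nothing is read from their passing it. H2-Aa did not reach the mean, and its ratios were -1.69 and -2.07. At a mean of 10 CPM no class II gene entered. In bulk sums such as these, fewer cells of a type and less RNA per cell cannot be told apart.

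The class I genes moved less between harvests. B2m had 10.9, 12.5, 7.83 and 10.99 CPM, H2-K1 had 5.92, 9.16, 4.38 and 6.93 CPM, and H2-D1 had 16.4, 29.2, 12.3 and 20.9 CPM. The harvest ratio of the class I sum was -0.44 (-0.54 to -0.33) without fixation and -0.39 (-0.47 to -0.31) with methanol, so each class I gene was also lower in the anaesthetised libraries, but by less than 2-fold. The median ratio over all 15950 genes was -0.13 and -0.11, in the same order.

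**Figure D1:**
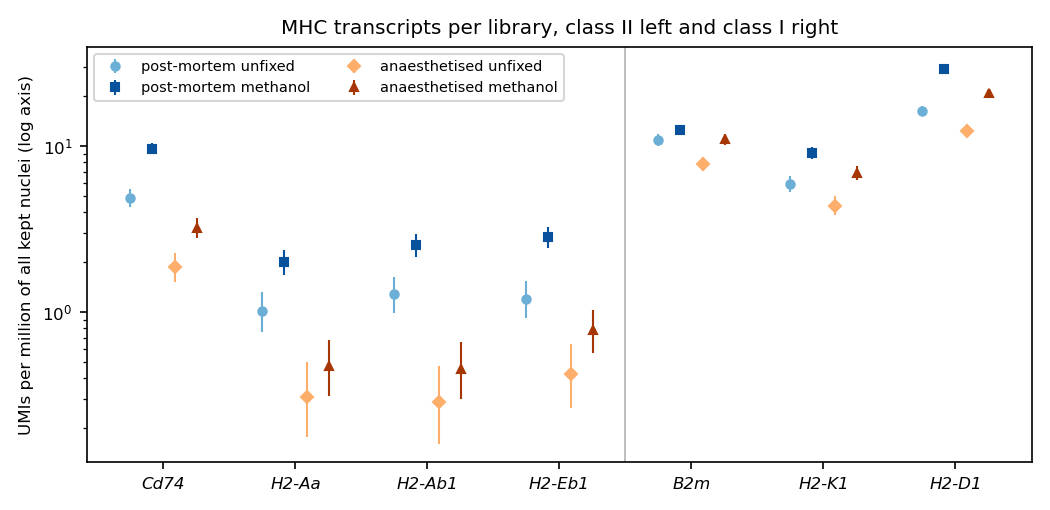
CPM (log axis) of the 7 genes over all kept nuclei, 1 point per library with its exact Poisson interval. The 4 class II genes spread more across libraries than the 3 class I genes, with the post-mortem methanol library highest for every gene.

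Over all nuclei, methanol libraries held more of every member than the unfixed library of the same harvest. The fixation ratio (methanol over unfixed) of the class II sum was 1.03 (0.86 to 1.19) for post-mortem brains and 0.77 (0.48 to 1.07) for anaesthetised brains, an order kept for all fixation ratios below. That of the class I sum was 0.61 (0.53 to 0.70) and 0.66 (0.56 to 0.76). By gene the ratios ran from 0.20 and 0.49 for B2m to 1.22 and 0.86 for H2-Eb1, against a median of all genes of -0.03 and -0.02. The intervals of H2-Aa (-0.32 to 1.60) and H2-Ab1 (-0.30 to 1.68) in the anaesthetised pair include 0. No member was at least 2-fold higher in both pairs. At a mean of 10 CPM, 0.276% of 9785 genes were, and of the members only B2m and H2-D1 entered. At a mean of 1 CPM the share was 0.408%, with 6 members entering. The fixation and harvest comparisons use the same 4 libraries.

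Class II transcripts lay in few nuclei. Only 1.58%, 1.08%, 0.614% and 1.01% of nuclei had a class II UMI, and the 10 nuclei richest in them held 50.1%, 72.8%, 40.7% and 78.1% of the class II UMIs, so in the anaesthetised unfixed library most lay outside the top 10. Class I UMIs were spread wide: 11.1%, 21.2%, 6.93% and 20.3% of nuclei had at least 1, and the top 10 held between 4.85% and 14.4%. These shares are not adjusted for depth.

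There were 17, 22, 10 and 10 nuclei with at least 3 class II UMIs, 59 in all, and they held 57.1%, 91.4%, 40.7% and 78.1% of each library's class II UMIs. Myeloid markers were summed over the microglia, macrophage, dendritic cell, and monocyte or neutrophil lists, so they could come from different lists. In 45 of the 59 nuclei, this sum was at least 2, in 10 at least 2 B cell markers were counted, and 7 had neither. By the gate they included 21 macrophage, 2 microglia and 6 B cell nuclei, while 17 fell under no class. The nucleus with most class II UMIs in the post-mortem unfixed library passed the dendritic cell gate, with 112 class II UMIs of 2190. It had 58 UMIs of Cd74, 19 of H2-Aa, 20 of H2-Ab1 and 15 of H2-Eb1, and made up 26.0% of that library's class II UMIs. In the post-mortem methanol library 1 nucleus that passed the monocyte or neutrophil gate had 268 of 1599, with 166, 34, 30 and 38 UMIs of the same genes, or 24.6% of its library. Both also held class I, with 9 and 29 UMIs. The B cell-gated nuclei of the anaesthetised methanol library, 5 in number, held 32.5% of its class II UMIs, and their richest nucleus had 40 of 564.

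**Figure D2:**
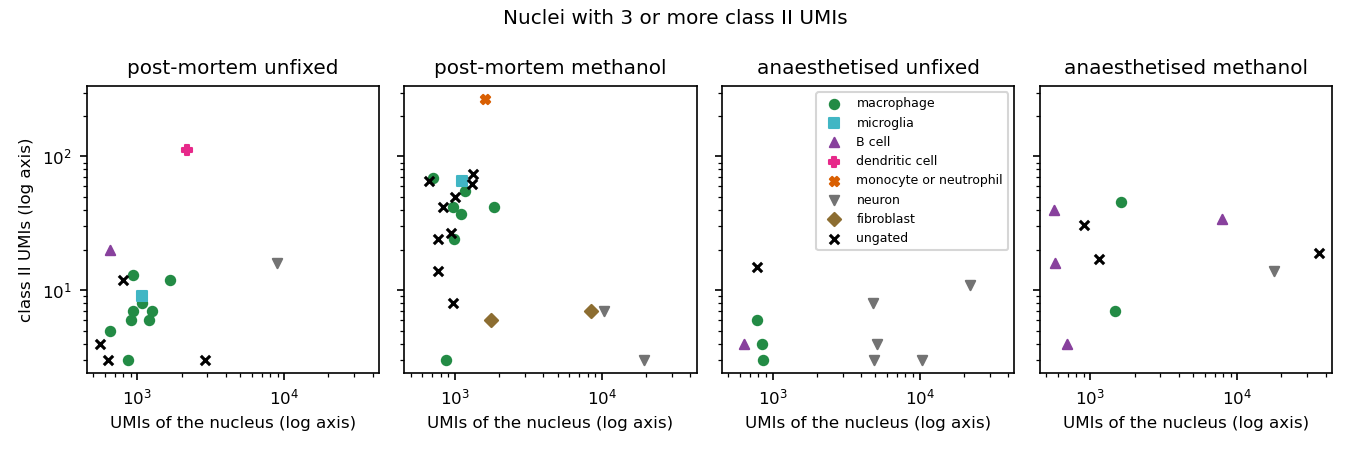
Class II UMIs against all UMIs (both log axes) for each of the 59 nuclei with at least 3 class II UMIs, 1 panel per library, marked by gated class. Most lie below 2000 UMIs, the post-mortem libraries reach 112 and 268 class II UMIs, and neuron-gated nuclei appear to the right, at high depth.

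Macrophage-gated nuclei had the highest class II level of the classes with at least 5 nuclei in every library. Cd74 was at 2238, 8159, 1257 and 1572 CPM in them, from 35, 134, 14 and 33 UMIs. H2-Eb1 had 831, 3532, 180 and 476 CPM. H2-Aa had 8, 32, 0 and 5 UMIs and H2-Ab1 12, 49, 0 and 6, so neither was detected in the anaesthetised unfixed macrophages, where the upper limit of a count of 0 was 331 CPM. The class II sum was 4348, 16623, 1436 and 2572 CPM. The intervals of the post-mortem pair, 3376 to 5512 and 14709 to 18716, do not overlap, and those of the anaesthetised pair, 821 to 2332 and 1932 to 3355, do.

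The macrophage fixation ratio of the class II sum was 1.93 (1.55 to 2.34) and 0.81 (0.01 to 1.74). In the anaesthetised methanol library 1 nucleus of 1621 UMIs held 46 of the 54 class II UMIs of this class, and without it the ratio of that pair was -1.76 (-3.23 to -0.49). The anaesthetised pair thus gave no direction that held without 1 nucleus. The harvest ratio was -1.56 without fixation and -2.68 with methanol, and -5.25 with methanol when that nucleus was left out. Over the same nuclei, the 10 macrophage markers summed to 10293, 13091, 14181 and 9429 CPM, so they did not follow the order of the class II genes. Neuron markers stood at 1407, 183, 1526 and 3762 CPM in these nuclei, highest in the anaesthetised methanol library, and their part in the result was not tested. Macrophage class I was 1662, 4749, 987 and 2286 CPM, with intervals of the fixation ratio of 0.86 to 2.21 for post-mortem and 0.25 to 2.30 for anaesthetised brains. With macrophage nuclei of at least 1000 UMIs alone, the class I ratio of the anaesthetised pair was -0.54.

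Microglia carried class I and little class II. In the 385, 469, 400 and 317 microglia-gated nuclei, B2m was at 170, 392, 120 and 432 CPM from 63, 183, 39 and 151 UMIs. H2-K1 was at 121, 261, 126 and 229 CPM, and H2-D1 at 148, 315, 135 and 281 CPM. For each of the 3 genes both methanol libraries lay above both unfixed libraries. The fixation ratios were 1.20 (0.78 to 1.63) and 1.84 (1.34 to 2.38) for B2m, 1.10 and 0.86 for H2-K1, and 1.08 and 1.05 for H2-D1. Of 5862 genes measured in microglia, 1.88% were at least 2-fold higher in both pairs, and of the 4 members measured B2m and H2-D1 were.

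Within a fixation state microglial class I differed little by harvest. The ratio of the sum was -0.21 (-0.56 to 0.13) without fixation and -0.04 (-0.25 to 0.17) with methanol, and both intervals include 0. At an equal depth of 1000 UMIs per nucleus, which kept 152, 202, 62 and 191 of the microglia, 36.8%, 58.9%, 29.0% and 56.5% had a class I UMI. Without thinning, 33.0%, 57.1%, 25.2% and 57.7% of all microglia-gated nuclei did. That set includes the nuclei under 1000 UMIs, so these shares do not show the effect of thinning. B2m at this depth was seen in 17.1%, 33.2%, 9.68% and 33.0%. Microglia markers summed to 8852, 14537, 8175 and 14504 CPM and neuron markers to 1361, 503, 1710 and 415 CPM in these nuclei, so both moved with fixation, and their part in the class I difference was not tested. With the gate raised to 4 markers the class I fixation ratios were 1.13 and 1.30.

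Microglial Cd74 had 13, 37, 4 and 8 UMIs, or 35.1, 79.3, 12.3 and 22.9 CPM. Of the 37, 33 came from 1 nucleus, which had 65 class II UMIs and 3 microglia markers. The harvest ratios of Cd74 were -1.40 (-3.59 to 0.18) without fixation and -1.72 with methanol, and 0.256% of the 5862 genes were at least 2-fold lower after anaesthesia in both pairs. Cd74 reached the 50 UMIs asked of a gene only through the post-mortem methanol library, so nothing is read from its passing. Without the nucleus richest in class II of each class and library, the ratio with methanol was 0.95 (-1.07 to 3.27). In the post-mortem methanol microglia H2-Aa had 12 UMIs, H2-Ab1 10 and H2-Eb1 11, of which 12, 9 and 11 lay in that same nucleus. In the other libraries none of the 3 genes had more than 5 UMIs in microglia.

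T or NK cell and endothelial nuclei had the most class I per UMI of the classes with at least 5 nuclei in every library. T or NK cell-gated nuclei, 15, 13, 5 and 7 in number, had 4391, 14996, 3108 and 6967 CPM of class I. The endothelial-gated nuclei, 27, 17, 30 and 9, had 1819, 6117, 1730 and 5049 CPM. Both classes had next to no class II, with 0, 2, 0 and 0 UMIs in the T or NK class and 0, 0, 1 and 1 in the endothelial class. A count of 0 here allows up to 90.7 CPM in the post-mortem unfixed and 196 CPM in the post-mortem methanol endothelial nuclei. H2-K1 in endothelial nuclei was at 639, 1755, 566 and 2205 CPM, H2-D1 at 836, 2872, 682 and 2062 CPM, and B2m at 344, 1489, 482 and 782 CPM. Endothelial class I was higher in methanol by 1.75 (1.32 to 2.19) and 1.55 (1.09 to 1.99). In the anaesthetised unfixed library 1 nucleus of 14488 UMIs held 36 of the 104 endothelial class I UMIs. That nucleus had 9 endothelial, 8 fibroblast, 8 astrocyte and 6 macrophage markers. In the anaesthetised methanol library 1 nucleus held 16 of the 29 endothelial H2-D1 UMIs. The ratio without these nuclei was not run. Neuron markers in the endothelial nuclei stood at 2360, 479, 2179 and 285 CPM, lower in methanol, and their part was not tested.

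The perivascular classes differed from endothelium. Mural-gated nuclei, 25, 19, 15 and 5 in number, had 6, 11, 2 and 3 class I UMIs, too few for a ratio. Fibroblast-gated nuclei had 427, 1271, 66.4 and 433 CPM of class I from 18, 79, 3 and 24 UMIs, with 38 of the 79 in 1 nucleus of 8359 UMIs that held 5 fibroblast and 4 astrocyte markers.

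**Figure D3:**
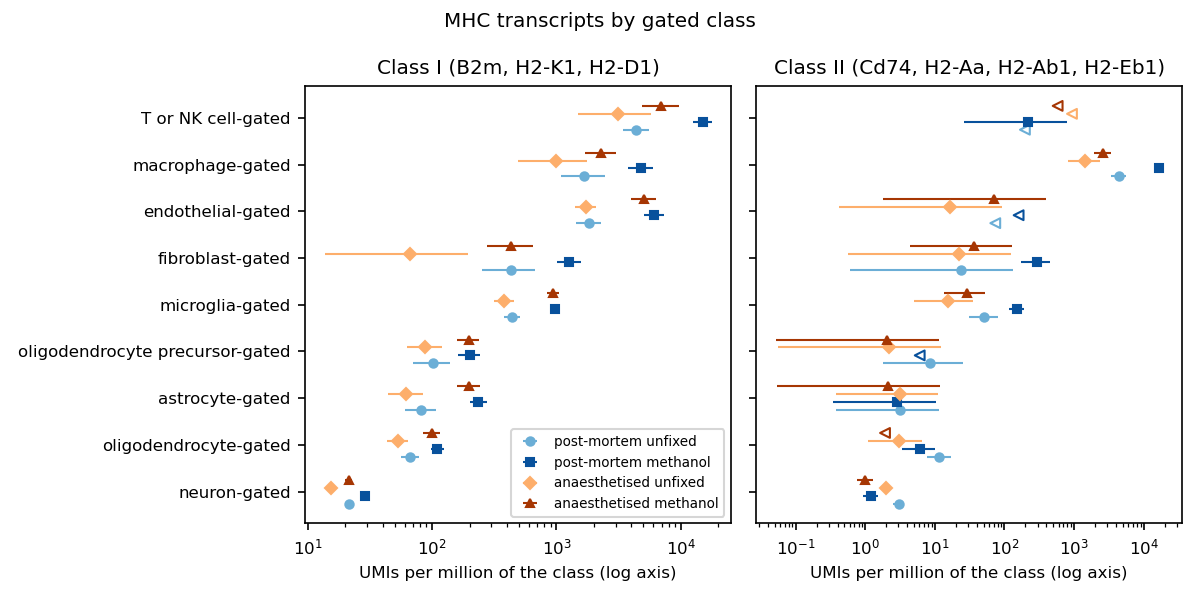
Summed class I and class II CPM (log axis) by gated class and library, with exact Poisson intervals. Open left-pointing triangles stand for 0 UMIs and are drawn at the level of 3 counts. Class I falls from T or NK cell and endothelial nuclei to neurons, and class II stands high in macrophage nuclei alone among the classes drawn.

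Among the classes with at least 5 nuclei in every library, class I was highest in T or NK cell nuclei, then endothelial, then macrophage nuclei in each library, and lowest in neurons. Neighbours in this order did not always differ beyond counting error: in the post-mortem methanol library the endothelial (5050 to 7343) and macrophage (3754 to 5928) intervals overlap, as do those of fibroblast (1007 to 1585) and microglia (881 to 1062). In 3 of the 4 libraries astrocytes, oligodendrocyte precursors and oligodendrocytes lay below fibroblasts and microglia, while in the anaesthetised unfixed library precursors lay above the fibroblast nuclei, which had 3 UMIs. Astrocytes had 81.3, 235, 62.1 and 198 CPM, precursors 101, 200, 87.6 and 196 CPM and oligodendrocytes 66.5, 110, 53.3 and 99.4 CPM. Neurons had 21.5, 29.0, 15.3 and 21.3 CPM. By their number, neurons still held 58.8%, 52.9%, 56.7% and 51.6% of all class I UMIs, and microglia 9.52%, 13.9%, 9.71% and 14.3%.

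In astrocytes H2-K1 was at 35.1, 136, 26.4 and 83.0 CPM and H2-D1 at 25.5, 58.5, 20.2 and 76.6 CPM. Their fixation ratios were 1.93 (1.27 to 2.69) and 1.63 (0.80 to 2.57) for H2-K1, and 1.17 (0.33 to 2.13) and 1.89 (0.97 to 2.96) for H2-D1. Both genes were thus at least 2-fold higher in both pairs, as were 1.84% of the 7445 genes measured in astrocytes. In the post-mortem and anaesthetised unfixed libraries H2-K1 had 22 and 17 UMIs, and H2-D1 had 16 and 13. Both genes reached the 50 UMIs asked of a gene only through the methanol libraries, so nothing is read from their place in this share. The other member measured, B2m, had 20.7, 41.4, 15.5 and 38.3 CPM and ratios of 0.97 and 1.27, just under the 2-fold line in the post-mortem pair. It had 13 and 10 UMIs in the unfixed libraries, so it too did not reach 50 without the methanol libraries. Neuron markers in astrocytes stood at 670, 325, 1064 and 309 CPM, lower in methanol, and their part was not tested.

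Oligodendrocytes and their precursors showed ratios of the class I sum between these and neurons. In oligodendrocytes the sum was higher in methanol by 0.73 (0.44 to 1.02) and 0.90 (0.53 to 1.27), and in precursors by 0.97 (0.42 to 1.58) and 1.15 (0.62 to 1.73). None of the 3 class I genes was at least 2-fold higher in both pairs in either class, where 0.727% of oligodendrocyte and 0.949% of precursor genes were.

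In neurons the 3 class I genes parted. H2-D1 was at 11.98, 21.2, 8.90 and 14.3 CPM, with fixation ratios of 0.82 (0.68 to 0.97) and 0.68 (0.51 to 0.86). B2m was at 7.59, 6.53, 5.04 and 5.35 CPM, with ratios of -0.22 (-0.43 to -0.01) and 0.08 (-0.17 to 0.34). H2-K1 was at 1.97, 1.33, 1.40 and 1.65 CPM, with ratios of -0.56 (-1.01 to -0.11) and 0.23 (-0.24 to 0.71). So H2-D1 was higher in methanol in both pairs, and its interval lay above that of B2m in both pairs and above that of H2-K1 in the post-mortem pair only. H2-D1 was the 1 member measured at a mean of 10 CPM in neurons and was under 2-fold, where 0.483% of 9532 genes were at least 2-fold higher in both pairs. At 1000 UMIs per nucleus H2-D1 was seen in 1.22%, 2.46%, 1.13% and 1.78% of neurons and B2m in 0.728%, 0.515%, 0.516% and 0.545%.

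**Figure D4:**
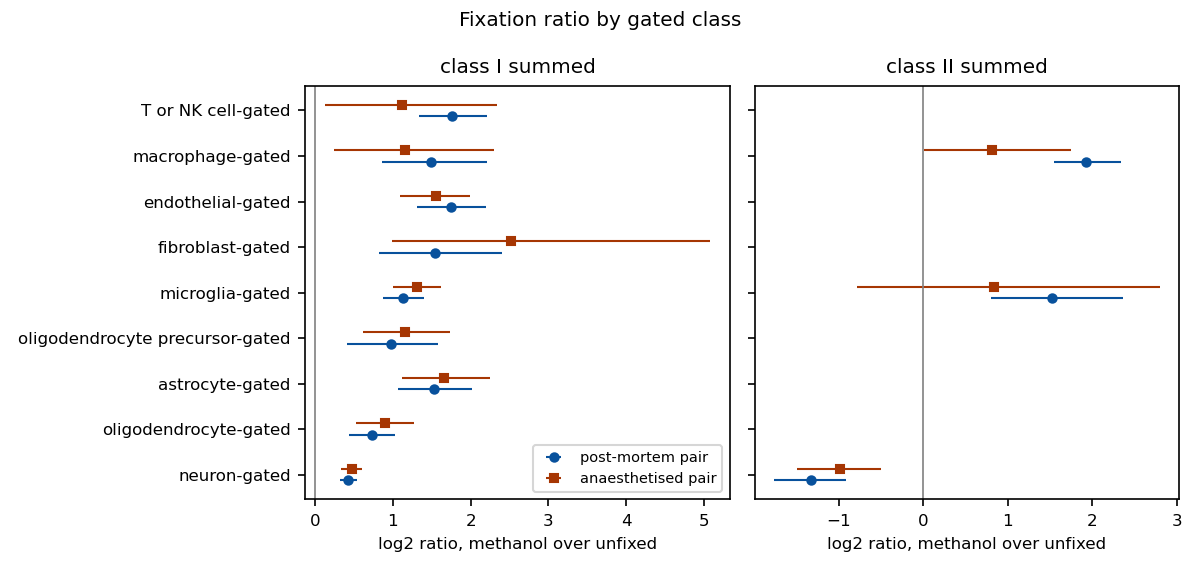
Fixation log2 ratio (methanol over unfixed) of the class I and class II sums by gated class, with exact conditional intervals, for the post-mortem and anaesthetised pairs. All class I ratios lie above 0 and are lowest in neurons, class II ratios lie below 0 in neuron nuclei, and the macrophage class II ratio of the anaesthetised pair rests on 1 nucleus.

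The make-up of class I differed by class. Over the 4 libraries summed, H2-K1 gave 7.09% of the class I UMIs in neurons, 22.2% in oligodendrocytes, 27.0% in microglia and 49.6% in astrocytes. H2-D1 gave 65.3% in neurons, 54.4% in oligodendrocyte precursors and 32.2% in microglia. B2m gave 40.8% in microglia, 30.4% in oligodendrocytes, 20.1% in astrocytes and 17.9% in T or NK cell nuclei. By library the B2m share was 38.7%, 40.5%, 31.5% and 45.9% in microglia and 32.9%, 25.2%, 38.7% and 31.6% in oligodendrocytes, so their order turned in the anaesthetised unfixed library. Shares of genes are not levels per length, so they are compared here across classes and not between genes. In every library the H2-K1 share in neurons, between 4.60% and 9.14%, was below that in astrocytes, between 41.9% and 57.6%, with no overlap of intervals. Within neurons the H2-D1 share was 55.6% (52.5 to 58.7) and 58.0% (54.3 to 61.6) in the unfixed libraries and 72.9% (70.7 to 75.0) and 67.1% (64.4 to 69.8) in the methanol libraries, so the fixation states did not overlap. H2-Q genes, which resemble both heavy chains, were also counted: H2-Q7 had 1180, 3237, 622 and 968 CPM in the T or NK cell nuclei.

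**Figure D5:**
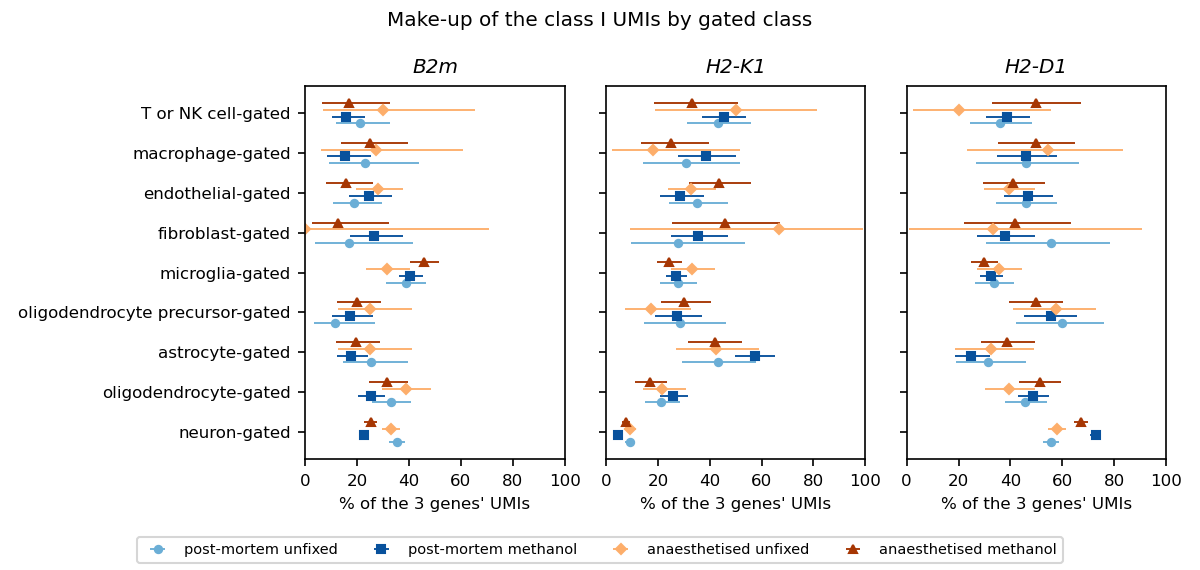
Share of B2m, H2-K1 and H2-D1 in the class I UMIs of each gated class, 1 point per library with its Clopper-Pearson interval. Neurons stand apart with H2-K1 below 10%, and astrocytes are high in H2-K1. The H2-D1 share of neurons lies above 55%. That of oligodendrocyte precursors does too in the post-mortem unfixed (60.0%), post-mortem methanol (55.6%) and anaesthetised unfixed (57.5%) libraries.

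Neurons, which are not known to transcribe class II genes, still carried some class II UMIs, and these were fewer in methanol in both pairs. The class II sum in neuron-gated nuclei was 3.02, 1.20, 1.99 and 1.00 CPM, from 141, 71, 94 and 56 UMIs. The fixation ratios were -1.33 (-1.76 to -0.91) and -0.99 (-1.50 to -0.50). With doublets kept, the ratio of the post-mortem pair was -0.46. Most such nuclei held 1 class II UMI, namely 117, 53, 57 and 38 nuclei, and 1, 2, 5 and 1 held at least 3. Neurons held 32.7%, 6.53%, 62.7% and 19.2% of each library's class II UMIs. At 1000 UMIs per nucleus 0.285%, 0.157%, 0.191% and 0.0808% of neurons had a class II UMI, against 3.29%, 0.495%, 3.23% and 2.62% of microglia.

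Markers of other cell types were also counted in neurons. The 10 microglia markers, all 10 of which were seen, summed to 79.4, 46.5, 69.3 and 40.0 CPM in neurons, and the oligodendrocyte markers to 183, 98.0, 153 and 79.8 CPM. The macrophage markers, of which 8 to 10 of 10 were seen, changed less, with 8.34, 6.72, 7.29 and 6.13 CPM. The B cell markers stood at 7.49, 6.28, 4.83 and 2.77 CPM, with both post-mortem libraries above both anaesthetised ones. Where neurons with more than 1 marker of any immune list were left out, the class II fixation ratios were -1.22 (-1.69 to -0.77) and -1.12 (-1.80 to -0.50). The part of RNA free in the droplets in these values was not tested. Cd74 made up 62.7% (57.5 to 67.7) of the class II UMIs in neurons and 52.6% (47.6 to 57.5) in macrophages, summed over libraries, and the intervals abut. By library the share was 61.7%, 64.8%, 64.9% and 58.9% in neurons and 51.5%, 49.1%, 87.5% and 61.1% in macrophages. The order thus turned in the anaesthetised libraries.

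The genes that serve the same pathway were taken from lists by role, and the counts below are of those measured at a mean of 10 CPM. Among the genes of class II processing and peptide exchange, 9 of 12 were measured in microglia and all 9 were higher in methanol in both pairs, with medians of 0.80 and 1.16 against -0.003 and 0.06 for all genes, of which 36.1% were higher in both pairs. Of the 9, 4 were at least 2-fold higher, against 1.88% of all genes: H2-DMa (1.56 and 1.92) and H2-DMb1 (1.06 and 1.60), the chains of the peptide editor, Ctss (1.21 and 1.35), the cathepsin that trims the invariant chain, and Ctsl. H2-DMa and H2-DMb1, with 100 and 72 UMIs in all, had under 50 UMIs in the unfixed libraries. They reached 50 only through the methanol libraries, so nothing is read from the count of 9 and its medians, nor from their place among the 4. H2-DMa was at 32.4, 98.5, 24.5 and 97.3 CPM and Ctss at 1126, 2610, 1008 and 2568 CPM. March1, a ubiquitin ligase that removes class II from the surface, was at 535, 636, 515 and 564 CPM and differed little by fixation (0.25 and 0.13).

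For class I, 9 of the 13 peptide loading and proteasome genes were measured in microglia. Of these 7 were higher in both pairs and 1 was lower, with medians of 0.51 and 0.75, beside the same 36.1% of all genes higher in both, and none reached 2-fold. Tap2, a chain of the peptide transporter, had ratios of 0.39 and 0.83, while the chaperone Calr had -0.04 and -0.01. With 95 UMIs in all, Tap2 reached 50 UMIs only through the methanol libraries, so nothing is read from the count of 7 and the medians. Among 15 other MHC heavy chain genes, 3 were measured. H2-T24 had ratios of 0.09 and 0.87, H2-T22 of 0.75 and 1.26 and H2-M3 of 1.54 and 1.57. H2-T24, H2-T22 and H2-M3, with 90, 53 and 56 UMIs in all, reached 50 UMIs only through the methanol libraries, so nothing is read from this count. Of 13 regulators, 8 were measured, 3 were higher and 1 was lower, and none reached 2-fold. Irf8, a myeloid regulator, was at 281, 216, 218 and 315 CPM. Of 18 interferon response genes 3 were measured: Ifi27 had ratios of 0.27 and 0.03, Irf9 of 1.01 and 0.26, and Stat2 of -0.66 and -0.55, so 2 were higher and 1 was lower in both pairs. Irf9, with 52 UMIs in all, reached 50 only through the methanol libraries, so nothing is read from its place in this count.

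In astrocytes 5 of 5 measured loading genes were higher in both pairs, with medians of 0.65 and 1.09 against -0.12 and -0.08 for all genes, of which 25.8% were higher in both pairs. Of the 5, Tap2, with 84 UMIs, was measured only through the methanol libraries, so nothing is read from this count and its medians. In astrocytes Fcgrt, the neonatal Fc receptor heavy chain, stood at 4.78, 45.6, 7.77 and 29.8 CPM, with ratios of 3.05 and 1.85. With 54 UMIs, Fcgrt too was measured only through the methanol libraries. The lysosomal genes Ctsb (1.24 and 1.09) and Cd63 (1.85 and 1.75) were at least 2-fold higher. Over all nuclei, 3 of 3 loading genes and 7 of 7 class II processing genes were higher in both pairs, as were 40.8% of all genes, and none reached 2-fold. In neurons 3 of 3 and 5 of 5 were higher, beside 41.85% of all genes. In oligodendrocytes only 1 of 4 and 4 of 7 were, beside 27.5%. Cd63 was at least 2-fold higher there (1.12 and 1.52), beside 0.727% of genes. Ctss was at least 2-fold lower there (-2.359 and -2.335), beside 8.39%. With 114 UMIs, Ctss was measured only through the unfixed libraries, so nothing is read from its place. All genes of these lists were counted in the same libraries as the members.

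By likeness of pattern, the genes nearest the class II sum were Gpr183 (Pearson r = 0.905), Cd14 (0.904), Lat2 (0.902), Gpr34 (0.897) and Cd37 (0.897). The genes nearest B2m were Slc12a9 (0.975), Nr3c1 (0.973), Grn (0.972), Arl10 (0.966) and Adam17 (0.965). Tcn2 (0.980) was nearest H2-K1, and Sept10 (0.935) and Pdia3 (0.935), a member of the class I loading complex, were nearest H2-D1. Each r was taken over 20 points, 5 classes in 4 libraries, among 17915 genes, and these points share their library's depth, so r is a description. Between the class I genes r was 0.921 for B2m with H2-D1, 0.892 for B2m with H2-K1 and 0.897 for H2-K1 with H2-D1. Between the class II genes it ran from 0.379 for H2-Ab1 with H2-Eb1 to 0.815 for Cd74 with H2-Aa, with few UMIs in most points.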

How the data were processed

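The authors deposited UMI count matrices for 4 libraries, with genome build mm10 per the submitters' processing notes. Aligner, caller, intron counting and strand setting are not given in the sources used here. The values are raw counts. Barcodes with at least 500 UMIs and 300 genes and at most 5% mitochondrial UMIs were kept. Scrublet in scanpy 1.11.5, at an assumed rate of 6%, removed 1817, 966, 2720 and 816 doublets, in the order post-mortem unfixed, post-mortem methanol, anaesthetised unfixed and anaesthetised methanol. Barcodes over 50000 UMIs, 15 and 10 in the methanol libraries, were left out, a limit set after seeing the data. UMIs were summed per library and gated class and scaled to CPM, counts per 1000000 UMIs of that sum, with exact Poisson intervals. Ratios had 0.5 counts added and exact conditional intervals. Shares had Clopper-Pearson intervals. A gene was called when at least 2-fold the same way in both pairs, at a mean of at least 10 CPM and, in a class, at least 50 UMIs. Named genes were the 7 members, up to 4 measured genes per list by mean CPM, up to 3 of the largest called, and the 5 genes nearest in pattern. Clustering left the members out. The scripts were tested on simulated data. With 1 library per group no test was run. The members and lists were chosen with earlier results of these data known.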

Additional observations from a re-analysis of the deposited data

Results flagged for a closer look

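Class II UMIs were also counted in barcodes that the comparisons left out. Barcodes called doublets held 103 (unfixed) and 213 (methanol) class II UMIs after post-mortem harvest, and 16 (unfixed) and 47 (methanol) after anaesthesia. Barcodes over 50000 UMIs held 86 in the post-mortem methanol library.

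The class II sum stood on opposite sides of 0 in macrophage-gated and neuron-gated nuclei when methanol was set against no fixation. In macrophages the log2 ratio was 1.93 for post-mortem and 0.81 for anaesthetised brains, and in neurons -1.33 and -0.99. The macrophage value of the anaesthetised pair rested on 1 nucleus, without which it was -1.76, so in that pair both classes then lay below 0. The difference between the classes was not tested.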

How the results depend on the processing

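Over all nuclei, no ratio whose interval excluded 0 changed direction under the alternatives run, but ratios within small classes did. The class I fixation ratio of macrophages in the anaesthetised pair was -0.54 with nuclei of 1000 UMIs or more. The class II fixation ratio of macrophages in that pair was -1.76 without the nucleus richest in class II of each library and -1.21 without the richest of each class and library. In microglia 4 class II values turned under each of 3 alternatives. With a gate of 4 markers the post-mortem fixation ratios of Cd74 and the class II sum were -1.62 and -1.47 and the harvest ratios with methanol 1.33 and 1.34. With classes from clusters they were -1.44, -1.27, 2.46 and 2.74, and without the richest nucleus of each class and library -1.41, -1.27, 0.95 and 1.05. With nuclei of 1000 UMIs or more, the class I fixation ratio of the anaesthetised pair was 0.82 and the class I harvest ratio of the methanol pair -0.29. There were then 8, 12, 5 and 6 nuclei with at least 3 class II UMIs, and neurons held 40.96%, 9.33%, 89.3% and 28.7% of the class II UMIs. With doublets kept, neurons held 12.6% in the post-mortem methanol library. With median-of-ratios factors the class I harvest ratio of the methanol pair was -0.30. The alternatives that leave out nuclei rich in class II or barcodes of mixed markers, and the 50000 UMI limit, were chosen after seeing the data. Without barcodes that had 3 or more markers of an unrelated class, the class II fixation ratio of the post-mortem pair was 1.20, the class II harvest ratios were -1.84 and -2.10, the class I fixation ratio of the post-mortem pair was 0.70 and the class I harvest ratio of the methanol pair was -0.52. In the anaesthetised unfixed library 6 nuclei then had at least 3 class II UMIs and neurons held 54.0%. Without the nucleus richest in class II of each library, the class II harvest ratio of the unfixed pair was -1.25, and neurons held 44.2% and 8.66% in the post-mortem libraries. At a mean of 1 CPM in place of 10, 3 members in place of 0 were at least 2-fold lower after anaesthesia in both pairs, beside 0.527% of 15950 genes. Of the 3, H2-Ab1 and H2-Eb1 reached the mean only through the post-mortem libraries, so nothing is read from this count. Values that moved beyond their intervals, beside those that turned, were 54 of 124 with 1000 UMIs or more, 24 of 124 without barcodes of mixed markers, 21 of 124 without the richest nucleus of each library, 4 of 124 with doublets kept, 0 of 124 with barcodes over 50000 UMIs kept, 4 of 80 with median-of-ratios factors, 7 of 48 and 11 of 64 with gates of 2 and 4 markers and 5 of 24 with classes from clusters. Class II ratios within classes and macrophage class I ratios were not run with median-of-ratios factors, nor macrophage or neuron ratios with clusters. Thinning to 2000 or 500 UMIs changed 15 and 9 of 16 detection shares, since shares scale with depth. Small classes limit every macrophage, vascular and lymphoid value, and with 1 library per group library and condition cannot be told apart. Ratios are given within pairs, but no paired test was run, because each group held 1 library.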

Other observations

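Ciita is the class II transactivator that is known to switch on class II genes. In neuron-gated nuclei it had 162, 58, 144 and 47 UMIs, or 3.47, 0.979, 3.05 and 0.841 CPM. The order is post-mortem unfixed, post-mortem methanol, anaesthetised unfixed and anaesthetised methanol. Over all nuclei it had 3.36, 0.955, 3.03 and 0.842 CPM, so its neuron level was close to that of all nuclei. It had 0 UMIs in microglia-gated nuclei of all 4 libraries, where the upper limits of a count of 0 ran from 7.90 to 11.3 CPM. These limits lie above the neuron level, so the counts of 0 do not show a lower level in microglia. In macrophage, dendritic and monocyte-gated nuclei together it had 1, 1, 0 and 0 UMIs. Nlrc5, the class I transactivator, had 21, 12, 10 and 14 UMIs in microglia (56.7, 25.7, 30.6 and 40.1 CPM), and its microglial level did not show the methanol order of B2m, H2-K1 and H2-D1.

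Nuclei clustered without the 7 members still fell into 1 cluster of 150 nuclei whose leading genes by fold were Cd74, H2-Eb1, H2-Aa and H2-Ab1, with the T cell gene Ms4a4b next. It had 42, 42, 40 and 26 nuclei by library and held 56.6%, 90.3%, 36.0% and 66.8% of the class II UMIs. It showed 9 of 10 markers of its best matching list and 6 of 10 of the next, and was left unnamed. Which lists these were was not recorded.

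In the anaesthetised methanol library 1 nucleus held 203 class I UMIs of its 35843, or 8.81% of the library's class I. It had 10 of 10 mural, 10 of 10 endothelial, 9 of 10 macrophage and 9 of 10 astrocyte markers, fell under no class and was not called a doublet.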
